A study of Mus musculus with 4 samples.

Results

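Reg3b, Reg3g, Retnlb, Pla2g2a and Tff3 are 5 genes for small proteins that the gut lining secretes onto its surface. They were taken by symbol from the 23284 gene symbols of the deposited expression tables, and all 5 were found. They were chosen by their FPKM in these same libraries, as genes far higher in the knockouts, so their levels are described here and not tested. Expression was measured by RNA sequencing of living stromal cells from the large intestine of mice, which were sorted for the surface protein podoplanin and against CD45 (leukocytes), CD31 (endothelium) and EpCAM (epithelium). There were 4 groups with 1 library each, a wild type and a Rag2 knockout of strain BALB/c, and a wild type and an IL-10 knockout of strain C57BL/6J. Rag2 is needed to assemble antigen receptors, so mice without it lack mature T and B cells. IL-10 is a cytokine that restrains inflammation, and mice without it can develop colitis. The labels name no treatment, age or sex and do not say how many animals a library holds. Values are FPKM, that is, fragments scaled to transcript length and library size, a scale on which levels of genes of different length can be compared.

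These proteins belong to the chemical and mucus barrier of the intestine. Reg3b and Reg3g are secreted lectins of the C type that bind and can kill bacteria, and gut epithelial cells make more of them when interleukin 22 acts through the transcription factor STAT3. Retnlb encodes RELM-beta, a resistin-like peptide released by goblet cells, and Tff3 encodes trefoil factor 3, a goblet cell peptide that aids repair of the epithelium. Pla2g2a encodes a secreted phospholipase A2 that cleaves bacterial membrane lipids. The gene is intact in BALB/c mice and carries a frameshift in C57BL/6 mice. All are best known as products of epithelial cells, which the sort was meant to leave out.

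Reg3b and Reg3g had the most alike profiles of the 5, so the sequences before their start sites are shown beside those of Reg3d and Reg3a, the neighbours of Reg3b. All lie in a cluster on chromosome 6 (RefSeq, GRCm38.p6). Reg3b spans 78370885 to 78373466, followed by Reg3d, Reg3a, Reg2 and Reg1, and Reg3g spans 78466269 to 78468874 on the opposite strand. Each line gives the 250 bases before the annotated start, 5′ to 3′ on the strand of the gene. The windows are chr6:78370635-78370884 (plus) for Reg3b, chr6:78468875-78469124 (minus) for Reg3g, chr6:78378866-78379115 (minus) for Reg3d and chr6:78380459-78380708 (plus) for Reg3a. Capitals mark matches to the STAT motif (TTCNNNGAA), the STAT6 motif (the same with 4 free bases in the middle), the interferon response element ISRE, the NF-kappaB motif and the TATA box (TATAAA).
Reg3b: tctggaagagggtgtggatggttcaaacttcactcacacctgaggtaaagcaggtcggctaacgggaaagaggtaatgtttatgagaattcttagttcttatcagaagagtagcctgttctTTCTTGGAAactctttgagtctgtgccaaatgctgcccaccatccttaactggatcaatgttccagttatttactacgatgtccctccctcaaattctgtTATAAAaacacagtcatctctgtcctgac
Reg3g: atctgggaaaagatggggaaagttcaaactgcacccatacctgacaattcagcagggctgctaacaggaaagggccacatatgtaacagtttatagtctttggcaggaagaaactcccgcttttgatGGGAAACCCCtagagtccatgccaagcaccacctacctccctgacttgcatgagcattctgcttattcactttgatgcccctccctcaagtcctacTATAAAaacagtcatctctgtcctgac
Reg3d: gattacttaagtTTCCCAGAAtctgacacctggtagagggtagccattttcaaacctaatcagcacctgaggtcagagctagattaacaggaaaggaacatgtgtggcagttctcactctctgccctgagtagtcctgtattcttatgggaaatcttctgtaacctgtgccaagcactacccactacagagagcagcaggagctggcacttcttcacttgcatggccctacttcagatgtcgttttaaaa
Reg3a: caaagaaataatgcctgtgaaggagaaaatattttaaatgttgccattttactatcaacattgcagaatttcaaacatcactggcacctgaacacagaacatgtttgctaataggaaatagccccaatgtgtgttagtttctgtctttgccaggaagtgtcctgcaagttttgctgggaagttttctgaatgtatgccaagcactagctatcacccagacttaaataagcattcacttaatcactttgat

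The windows of Reg3b and Reg3g were identical at 173 of 247 aligned bases (70.0%) and shared an unbroken run of 20 bases, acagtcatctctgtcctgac, that ends at the start site. Identity was 69.2% between Reg3g and Reg3a, 62.3% between Reg3g and Reg3d, 61.1% between Reg3b and Reg3d, and 47.5% between Reg3b and Reg3a. Reg3b and Reg3g both held TATAAA, 29 bases before the start in Reg3b and 27 in Reg3g, a motif in 7.59% of all 32851 RefSeq windows of this length on the gene strand. The windows of Reg1 and Reg2, not printed here, held TATAAA as well, 30 bases before the start. Both genes were listed at 0 in all 4 libraries, so the motif does not set Reg3b and Reg3g apart in the cluster. Reg3b held a STAT match, TTCTTGGAA, from 129 to 121 bases before the start, and Reg3g held an NF-kappaB match, GGGAAACCCC, from 123 to 114 bases before it. On both strands, 7.02% of all windows held the STAT letters and 7.25% the NF-kappaB motif. The window of Reg3d held another STAT match, TTCCCAGAA, and that of Reg3a held none of the motifs. The STAT6 motif and ISRE were in 5.85% and 2.98% of all windows and in none of these 4, and no matches overlapped. A match describes letters only, and GENCODE starts Reg3b further upstream, at 78370657. The TATA box was added after the sequences had been seen. RefSeq windows for the other members were not used here.

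Estimated depth was 8300000 to 9880000 fragments per library. An FPKM of 3 fragments, a limit for a value of 0, was 0.529 to 0.744 for 4 of the genes and 1.07 to 1.28 for Tff3, whose transcript is short. Housekeeping genes are near 0 too (Gapdh 0.196 to 0.349 FPKM, Ppia listed at 0 in one library), so a gene listed at 0 need not be silent. Il10 had 3.33 FPKM in wild-type C57BL/6J and 129.9 FPKM in the library labelled as IL-10 knockout. FPKM cover the whole gene, so this value cannot check the label. Rag2 was listed at 0 in wild-type BALB/c and had 0.712 FPKM in the library labelled Rag2 knockout, where the antibody joining chain gene Igj had 1.36 FPKM against 428 in wild type. The Y-linked gene Ddx3y had 16.9 FPKM in wild-type C57BL/6J and 0.0269 FPKM in the library labelled as IL-10 knockout, and Xist, the transcript of the inactive X chromosome, had 23.0 and 44.9 FPKM there. In wild-type BALB/c and Rag2 knockout Ddx3y had 36.3 and 31.5 FPKM and Xist 0.0509 and 0.105. Genotype, sex and animal therefore cannot be told apart in the C57BL/6J pair, nor strain, genotype and sex between the knockouts.

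Reg3b was nearly absent from the wild types and abundant in the knockouts. It had 0.364 FPKM in wild-type BALB/c, 121 in Rag2 knockout, 0.415 in wild-type C57BL/6J and 175 in the library labelled as IL-10 knockout. The wild type values correspond to about 2 fragments each, and the knockout values to about 663 and 833. On the FPKM scale the library labelled as IL-10 knockout was 422-fold above wild-type C57BL/6J (95% counting interval 117 to 3492), and Rag2 knockout was 331-fold above wild-type BALB/c (91.3 to 2740). These intervals are exact, rest on estimated fragments and cover counting error only, because there is 1 library per group. In bulk RNA, more cells that make a transcript and more of it per cell cannot be told apart.

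Reg3g followed the same order at a lower level. It had 0.177 FPKM in wild-type BALB/c, 50.3 in Rag2 knockout and 59.1 in the library labelled as IL-10 knockout, and was listed at 0 in wild-type C57BL/6J. The ratio in BALB/c was 284-fold (50.5 to 11250), against about 1 fragment in wild type. No ratio is given for C57BL/6J. Within a library, Reg3b exceeded Reg3g by 2.40-fold in Rag2 knockout (2.08 to 2.77) and by 2.96-fold in the library labelled as IL-10 knockout (2.58 to 3.41). Their transcripts are identical at 71.6% of aligned bases with no shared run above 35 bases, and how the authors treated fragments that fit both is not given in the sources used here.

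Retnlb, at 48816856 to 48818892 on chromosome 16 (RefSeq, GRCm38), was also close to 0 in the wild types, but the knockouts lay further apart. It had 0.205 FPKM in wild-type BALB/c, 10.8 in Rag2 knockout, 0.469 in wild-type C57BL/6J and 56.6 in the library labelled as IL-10 knockout. The wild type values stand for about 1 and 2 fragments. The ratio to wild type was 52.5-fold (8.99 to 2113) in BALB/c and 121-fold (33.1 to 1003) in C57BL/6J. The level in the library labelled as IL-10 knockout was 5.25 times that in Rag2 knockout (3.85 to 7.28), libraries that differ in strain, genotype and sex-linked transcripts.

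Pla2g2a had the opposite order among the knockouts. It was listed at 0 in wild-type BALB/c, and had 40.0039 FPKM in Rag2 knockout, 0.195 in wild-type C57BL/6J and 6.09 in the library labelled as IL-10 knockout. Rag2 knockout thus had 6.57 times the level of the library labelled as IL-10 knockout (4.45 to 10.04), from about 220 and 29 fragments. In C57BL/6J the ratio to wild type was 31.2-fold (5.17 to 1274), against about 1 fragment. The gene lies at 138831857 to 138835189 on chromosome 4 (RefSeq, GRCm38) in the C57BL/6J reference, where GENCODE M21 lists it as a polymorphic pseudogene and RefSeq as a transcribed pseudogene, and FPKM do not show the frameshift. It sits within the span of Pla2g5 on the other strand, and their annotated exons share 0 overlaps.

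Tff3, at 31125306 to 31129611 on chromosome 17 (RefSeq, GRCm38), was the member with the highest level in each wild type. It had 1.60 FPKM in wild-type BALB/c, 20.2 in Rag2 knockout, 11.4 in wild-type C57BL/6J and 88.6 in the library labelled as IL-10 knockout. Unlike the other members, it was well above the limit of detection in wild-type C57BL/6J, nearer to Rag2 knockout than to wild-type BALB/c. The ratio to wild type was 12.6-fold in BALB/c (4.65 to 47.9) and 7.75-fold in C57BL/6J (5.21 to 11.9). Its fragment estimates, about 4 in wild-type BALB/c, are the least certain because its transcript has 493 bases.

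**Figure D1:**
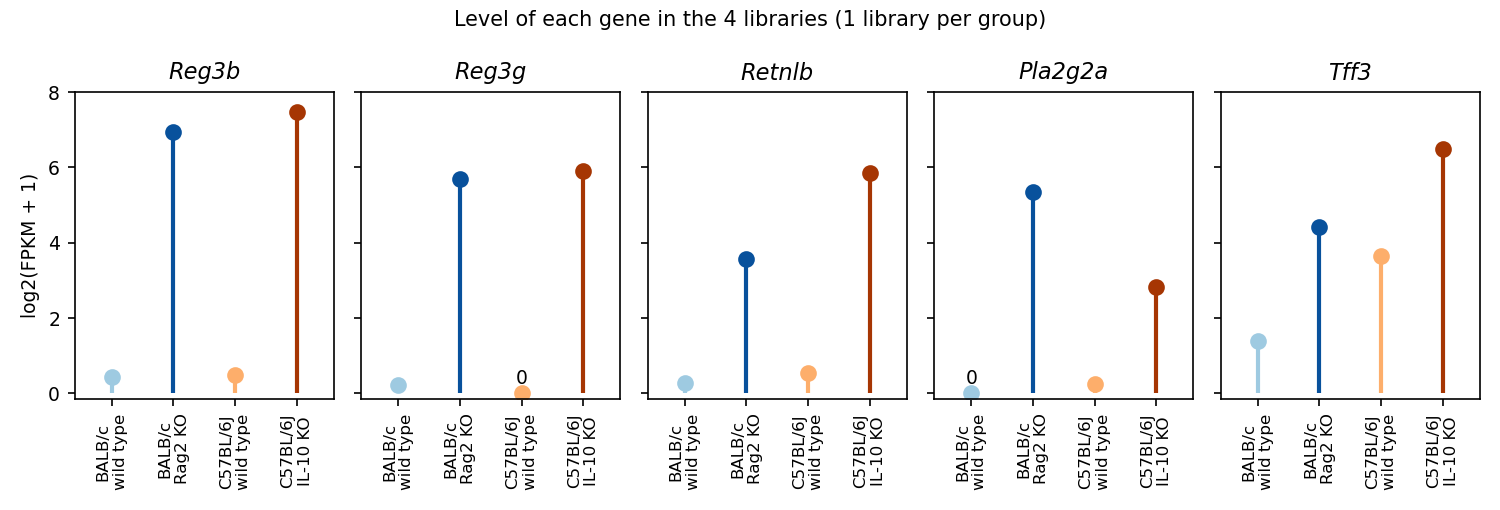
Each panel plots log2(FPKM + 1) of one gene in the 4 libraries, with 1 point per library and 0 written where a gene is listed at 0. The knockout libraries stand above the wild type of their strain in every panel, Pla2g2a is highest in Rag2 knockout (40.0039 FPKM), and Tff3 has 11.4 FPKM in wild-type C57BL/6J.

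Genes at least 2-fold apart were counted on the log2(FPKM + 1) scale among those that reached 1 FPKM in a library of the pair. All 5 members passed that filter in each knockout comparison and all 5 were at least 2-fold higher in the knockout. Over all genes, 10.1% of 12790 were that much higher in the library labelled as IL-10 knockout and 4.42% of 12336 in Rag2 knockout. That much lower were 3.82% and 2.03%. All 5 members were also at least 4-fold higher in each, as were 3.74% and 1.22% of all genes. The members were selected on these very differences, so nothing is read from their counts. Between the wild types only Tff3 passed the filter, at 2.26 lower in BALB/c on the log2(FPKM + 1) scale. In that pair 2.17% of 12290 genes were at least 2-fold lower in BALB/c and 1.81% that much higher. Higher by 4-fold or more were 0.334%, and the share lower by 4-fold or more was not counted. The FPKM ratio of Tff3 in BALB/c to C57BL/6J was 0.140 (0.0358 to 0.401). Epithelial and goblet cell markers differed along with Tff3 here: 6 of 21 epithelial markers that passed the filter were at least 2-fold lower in BALB/c and 0 higher (median -0.59), as were 4 of 11 goblet cell genes and 0 higher (median -0.85), against a median of 0.004 over all genes. Their part in the level of Tff3 was not tested. Each of the other 4 members had 0 to 2 fragments in each wild type, so a strain difference was not detectable at this depth.

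The members together had 2.35 FPKM in wild-type BALB/c, 242 in Rag2 knockout, 12.5 in wild-type C57BL/6J and 386 in the library labelled as IL-10 knockout. Their makeup differed between the libraries. Tff3 gave 91.4% of that sum in wild-type C57BL/6J and 68.2% in wild-type BALB/c. The share in wild-type BALB/c is uncertain, as it rests on about 4 fragments of Tff3 and 0 to 2 of each other member. Reg3b led in the knockouts, with 49.8% in Rag2 knockout and 45.4% in the library labelled as IL-10 knockout. Pla2g2a contributed 16.5% in Rag2 knockout against 1.58% in the library labelled as IL-10 knockout, and Retnlb 4.46% against 14.7%. The level of Reg3b ranked 535 in Rag2 knockout and 368 in the library labelled as IL-10 knockout among 22509 genes other than small RNAs.

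**Figure D2:**
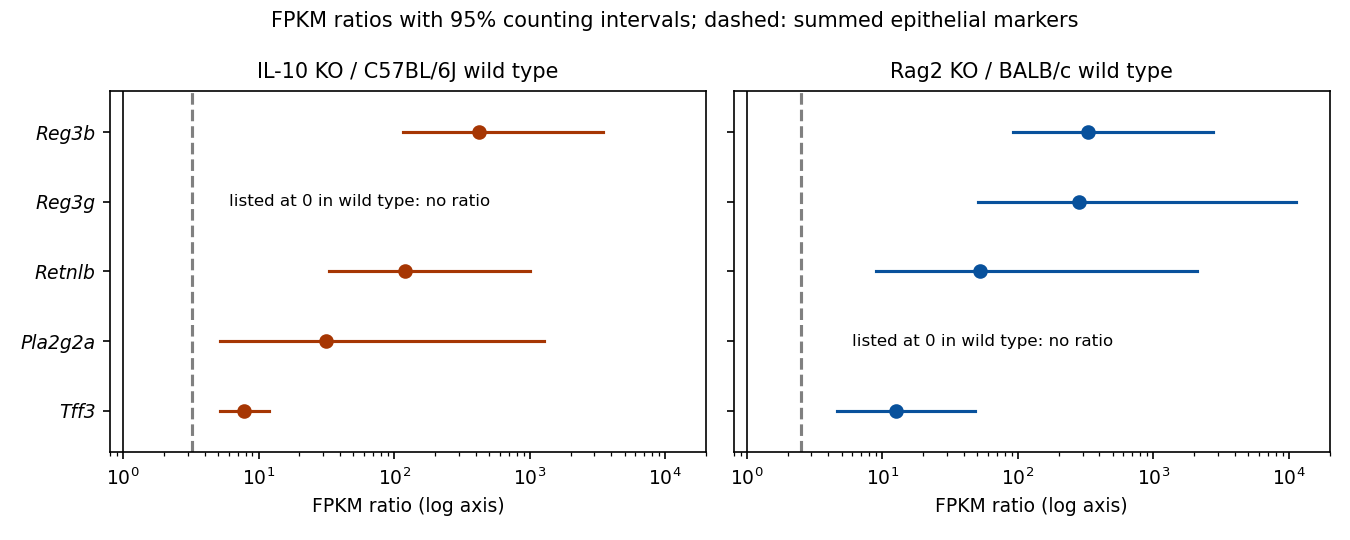
Points are FPKM ratios of each knockout to the wild type of its strain on a log axis, and lines are 95% counting intervals from estimated fragments. The dashed line marks the ratio of the summed epithelial markers, 3.23 in C57BL/6J and 2.5 in BALB/c, and 2 members listed at 0 in wild type have no ratio.

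Relatives of the 5 genes mostly had other patterns. In the Reg family, Reg1, Reg2 and Reg3d were listed at 0 in all 4 libraries, and Reg3a had 0.189 FPKM in the library labelled as IL-10 knockout and was listed at 0 elsewhere. Reg4, a lectin gene of enteroendocrine and deep crypt secretory cells, had 3.08 FPKM in wild-type BALB/c, 4.44 in Rag2 knockout, 3.94 in wild-type C57BL/6J and 33.2 in the library labelled as IL-10 knockout. It was thus at least 2-fold higher in 1 of the knockouts, unlike Reg3b and Reg3g.

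Among resistin-like genes, Retnlg, a gene of neutrophils and other myeloid cells, had 12.5, 36.9, 5.43 and 297.7 FPKM in the same order of libraries. Retnla, which macrophages and stromal cells express in type 2 immunity, had 9.77, 9.25, 8.50 and 3.36 FPKM, lowest where Retnlb was highest. Retn, the resistin gene, was listed at 0 in all 4. The transcript of Retnlb shares runs of at most 26 bases with that of Retnlg and 15 with that of Retnla.

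Of 10 other secreted phospholipase A2 genes, 5 passed the filter in the C57BL/6J pair and 4 in the BALB/c pair. In the C57BL/6J pair Pla2g10 was at least 2-fold higher in the knockout, with 2.19 FPKM against 0.562. In the BALB/c pair Pla2g2d and Pla2g5, genes of the same chromosome 4 cluster as Pla2g2a, were at least 2-fold higher, with 3.96 FPKM against 1.22 for Pla2g2d and a log2(FPKM + 1) difference of 1.27 for Pla2g5. Pla2g2e had 6.70 FPKM in wild-type BALB/c and 9.94 in Rag2 knockout. The broadly expressed Pla2g12a had 8.83 to 10.6 FPKM in the 4 libraries. Pla2g2f, Pla2g3 and Pla2g12b stayed at or under 1.12 FPKM, and Pla2g1b and Pla2g2c were listed at 0 throughout. Of the other trefoil genes, Tff1 had 0.882 FPKM in the library labelled as IL-10 knockout and Tff2 was listed at 0 in all 4.

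**Figure D3:**
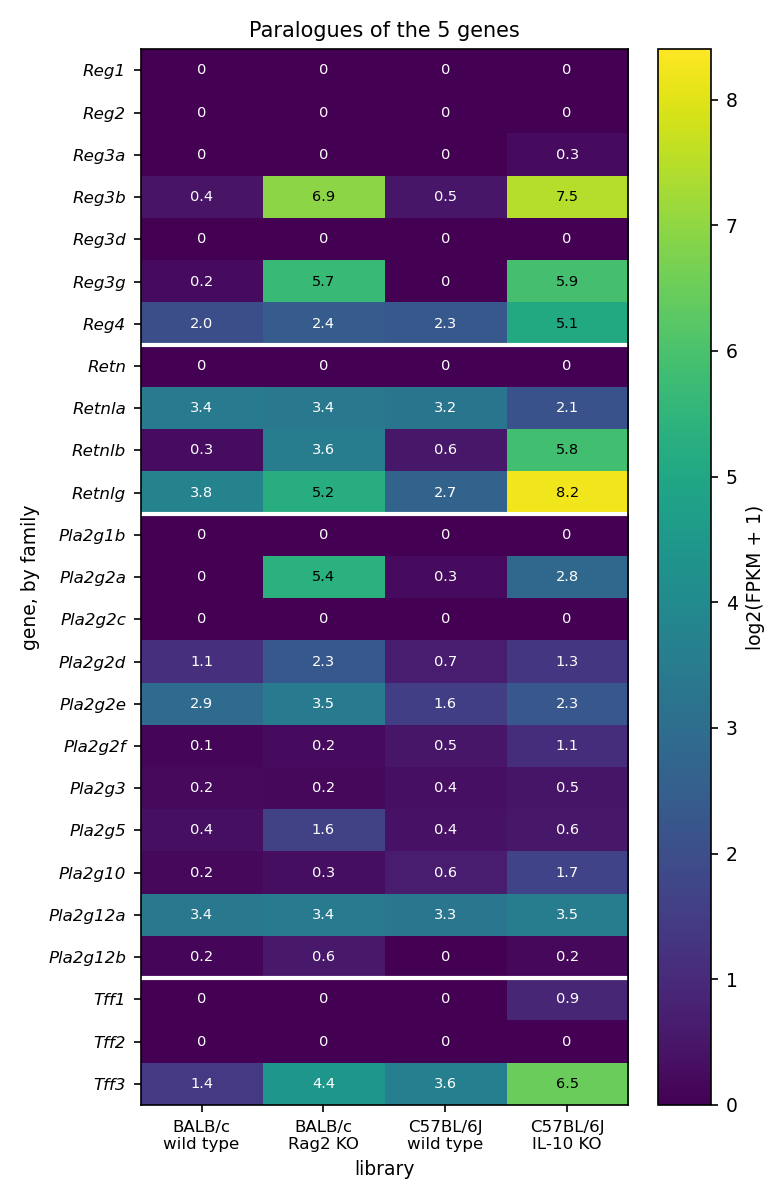
Each cell gives log2(FPKM + 1) of a gene (rows, by family, split by white lines) in a library (columns), with 0 for genes listed at 0. Reg3b and Reg3g stand out in the knockout columns while Reg1, Reg2 and Reg3d read 0 throughout.

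Transcripts of epithelial cells, which make these peptides, were present despite the sort and most were higher in the knockouts. The 26 measured markers of absorptive and general epithelium summed to 82.5 FPKM in wild-type BALB/c, 206 in Rag2 knockout, 138 in wild-type C57BL/6J and 446.5 in the library labelled as IL-10 knockout, and none was listed at 0 in any library. Of those that passed the filter, 17 of 23 reached 2-fold higher and 0 were that much lower in the library labelled as IL-10 knockout (median log2 ratio 1.60, against -0.002 over all genes). In Rag2 knockout 15 of 22 were higher and 0 lower (median 1.33, against -0.004). Epcam itself had 2.76, 9.35, 6.29 and 21.1 FPKM in the order of libraries above. Krt20, a keratin of mature surface epithelium, had 11.8 FPKM in the library labelled as IL-10 knockout against 1.13 in its wild type, and Krt19, a keratin of simple epithelia, had 31.7 FPKM in Rag2 knockout against 5.76. Some other markers of the list, named after their values were seen, were lower. Car4 had 0.436 FPKM in the library labelled as IL-10 knockout against 1.15 in its wild type. In Rag2 knockout Lgals2 had 0.2685 FPKM against 1.04, and Car1 had 12.6 against 16.2. The counts above are on the log2(FPKM + 1) scale, which shrinks differences at such low levels as those of Car4 and Lgals2.

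Estimates of how far the members exceeded these markers differed. On the log2 FPKM scale the summed markers were higher than in wild type by 1.69 in C57BL/6J and 1.32 in BALB/c. Reg3b exceeded that shift by a further 7.03 and 7.05 in the same order, and Reg3g by 6.83 in BALB/c. The excess was 5.23 and 4.39 for Retnlb, 3.27 for Pla2g2a in C57BL/6J, and 1.26 and 2.33 for Tff3. These values depend on the markers summed. In wild-type BALB/c, Car1, Lgals4 and Tspan8, named after their values were seen, had 16.2, 15.25 and 10.07 FPKM of the summed 82.5. Their FPKM ratios in BALB/c were 0.775, 2.12 and 0.786, against 2.5 for the sum. Epcam, Krt8, Krt18 and Elf3 had 3.39, 4.64, 6.83 and 8.86 there, so against these the BALB/c excess would be smaller. Counting intervals of the log2 FPKM ratios in C57BL/6J were 6.86 to 11.77 for Reg3b, 5.05 to 9.97 for Retnlb and 2.37 to 10.32 for Pla2g2a. In BALB/c they were 6.51 to 11.42 for Reg3b, 5.66 to 13.46 for Reg3g and 3.17 to 11.04 for Retnlb. These overlap within each strain, and they cover counting error only. No interval for a difference between members was computed, so no order of these members is read from them. The interval of Tff3 was 2.38 to 3.58 in C57BL/6J and 2.22 to 5.58 in BALB/c. Goblet cell genes outside the members lay on either side of Tff3. The excess was 1.79 and 3.25 for Agr2, 2.53 and 1.53 for Spink4, and 1.83 and 0.58 for Zg16. Clca1 and Sytl2, named after their values were seen, fell short of the summed markers. Their FPKM ratios were 0.863 and 0.791 in C57BL/6J, where the summed markers had 3.23. In BALB/c they were 1.27 and 0.707, against 2.5. Lcn2 had 5.01 in C57BL/6J, close to Retnlb, and 2.11 in BALB/c. The members were chosen for high ratios, so nothing is read from the excess itself. Per FPKM of Epcam, Tff3 had 0.582 FPKM in wild-type BALB/c, 2.16 in Rag2 knockout, 1.82 in wild-type C57BL/6J and 4.21 in the library labelled as IL-10 knockout. Reg3b had 0.132, 12.9, 0.0660 and 8.32 in that order, so per Epcam the highest level was in Rag2 knockout. The part of carried-over epithelial cells or RNA in the levels of the members was not tested.

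Goblet cell genes other than the members went partly along. Of 21 measured, 15 passed the filter in the C57BL/6J pair, with 10 at least 2-fold higher and 0 lower (median 1.24). In the BALB/c pair 11 passed, with 6 higher and 0 lower (median 1.17). Their summed level was 56.3, 160.6, 121 and 557 FPKM in the order of libraries above. Muc2, the main mucin of the colon, was not analysed here. Agr2, which helps fold mucins, had 1.27 FPKM in wild-type BALB/c, 30.3 in Rag2 knockout, 11.0 in wild-type C57BL/6J and 122.5 in the library labelled as IL-10 knockout. This is the order of Tff3. Spink4, a goblet cell protease inhibitor gene, had 4.33, 31.2, 14.2 and 264 FPKM, and Zg16, a lectin gene of mucus, had 2.58, 9.64, 2.41 and 27.5. The mucin gene Muc13 had 2.07, 13.1, 7.70 and 27.2 FPKM. Creb3l1 and Sytl2, named after their values were seen, had 21.7 and 13.3 FPKM of the 56.3 FPKM in wild-type BALB/c.

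Other genes of gut defence were higher in the knockouts too, mostly further in the library labelled as IL-10 knockout. Of 31 measured, 20 passed the filter in the C57BL/6J pair, with 17 at least 2-fold higher and 1 lower (median 2.84). In the BALB/c pair 15 passed, with 11 higher and 0 lower (median 1.85). Lcn2, which withholds iron from bacteria, had 3.26 FPKM in wild-type BALB/c, 35.2 in Rag2 knockout, 2.13 in wild-type C57BL/6J and 221 in the library labelled as IL-10 knockout. Sprr1a, a gene of the epithelial envelope, had 0.517, 7.62, 6.09 and 14.5 FPKM. S100a8 and S100a9, subunits of calprotectin, had 1624 and 1833 FPKM in the library labelled as IL-10 knockout. The cathelicidin gene Camp had 21.6 FPKM there and was listed at 0 in wild-type C57BL/6J.

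Genes on a chosen list of cytokines, receptors and signalling factors, not all of them known to act on each member, were 2-fold higher in part. None was 2-fold lower. Of 28 measured, 25 passed the filter in the C57BL/6J pair, with 14 at least 2-fold higher and 0 lower (median 1.33). In the BALB/c pair 23 passed, with 10 higher and 0 lower (median 0.65). Il22, which acts on epithelium to raise Reg3 genes, had 0.798 FPKM in wild-type BALB/c, 10.7 in Rag2 knockout, 1.43 in wild-type C57BL/6J and 15.3 in the library labelled as IL-10 knockout. Its receptor chain gene Il22ra1, an epithelial gene named after its values were seen, had at most 0.360 FPKM.

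Il17a, a cytokine gene of T cells and innate lymphoid cells, had 22.4 FPKM in the library labelled as IL-10 knockout and 0.214 to 0.416 FPKM in the other 3. Il1b, a cytokine gene of myeloid cells, had 30.5, 236, 32.3 and 510.6 FPKM in the order of libraries above. The type 2 cytokine genes of the list, named after their values were seen, had different orders. Il13 had 1.71, 5.89, 0.687 and 2.51 FPKM, and Il4 had 1.58, 2.14, 0 and 4.63 FPKM. Ifng had 3.61 FPKM in Rag2 knockout and 11.7 FPKM in the library labelled as IL-10 knockout, against 0.301 and 0.114 in their wild types.

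**Figure D4:**
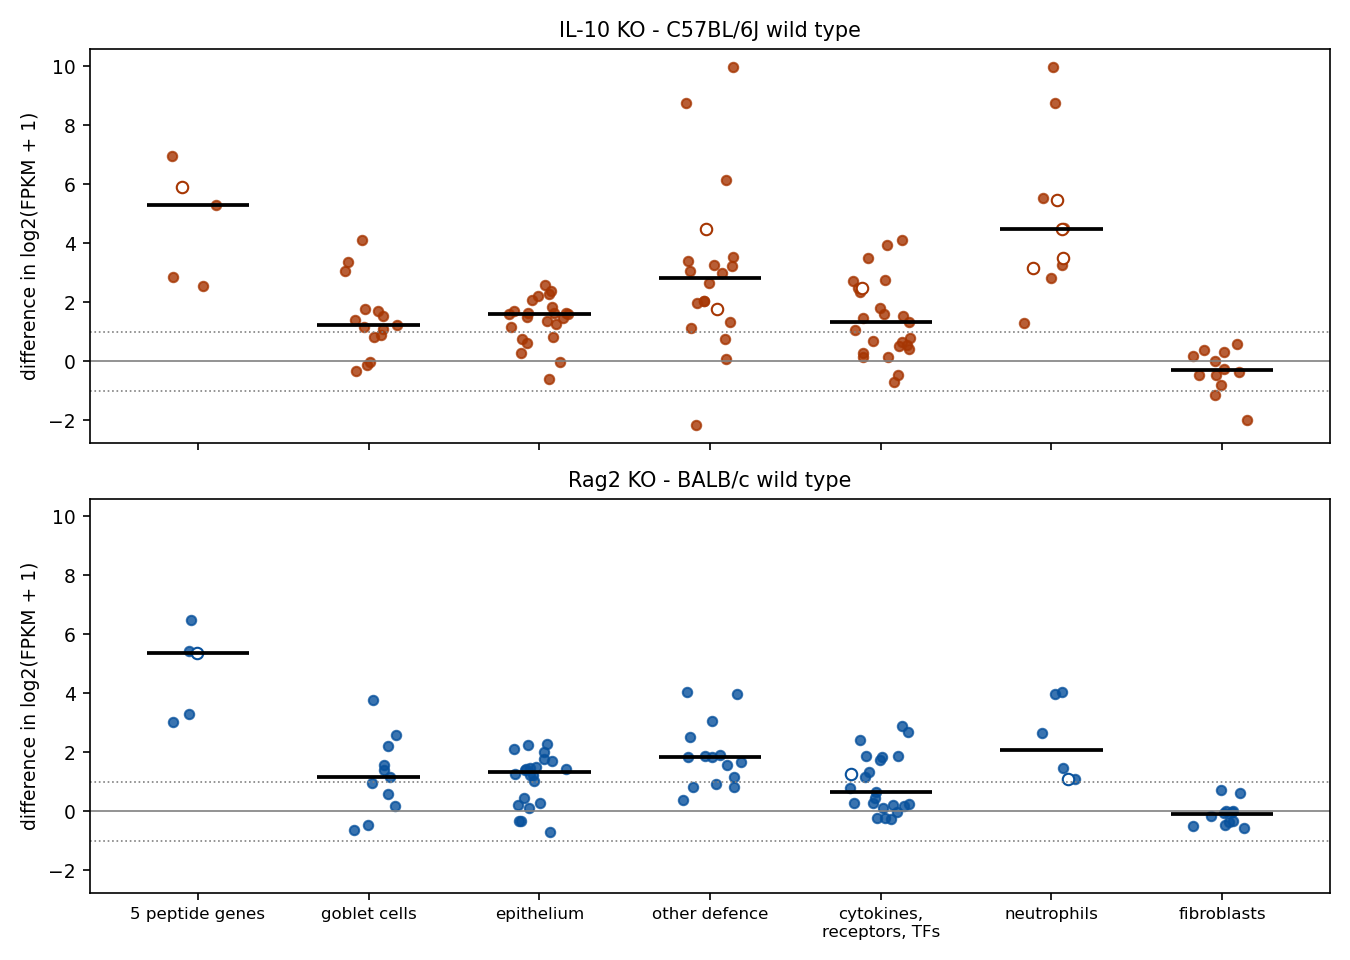
Points are genes that reached 1 FPKM in a library of a pair, placed by their difference in log2(FPKM + 1) between knockout and wild type. Bars are medians, open points were listed at 0 in wild type, and dotted lines mark 2-fold. The medians are 1.24 and 1.17 for the goblet cell list and 1.60 and 1.33 for the epithelial list, single goblet cell genes such as Agr2 (3.37 and 3.78) lie above Tff3 (2.85 and 3.03), and the fibroblast medians are -0.30 and -0.10.

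Markers of leukocytes also differed along with the members. Leukocyte markers summed to 297 FPKM in wild-type BALB/c, 553 in Rag2 knockout, 142 in wild-type C57BL/6J and 1195 in the library labelled as IL-10 knockout, with 14 of 14 at least 2-fold higher in the last pair. In Rag2 knockout 4 of 14 were higher by that much and 3 lower. Neutrophil markers, of which Camp, Ltf, S100a8 and S100a9 are also on the defence list and Retnlg in the resistin family, summed to 25.1, 247, 10.8 and 3889 FPKM, with 11 of 11 that passed the filter at least 2-fold higher in the library labelled as IL-10 knockout and 6 of 6 in Rag2 knockout. S100a8 and S100a9, at 1624 and 1833 FPKM, made up most of the last sum. The part of leukocytes in the levels of the members was not tested. Of 6 measured Paneth cell markers, all on the defence list too, only Lyz1 passed the filter, at 5.37 FPKM in Rag2 knockout, and the defensin genes Defa5, Defa17 and Defa24 were listed at 0 in all 4 libraries. The enteroendocrine list summed to at most 2.77 FPKM.

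Of 13 pancreatic acinar markers, 7 were listed at 0 in all 4 libraries. In the C57BL/6J pair 3 passed the filter and all 3 were at least 2-fold lower in the knockout, led by Sycn with 27.9 FPKM in wild-type C57BL/6J against 1.02. Their part in the levels of the members was not tested either. Of 7 mesothelial markers, only Wt1 and Krt19, which is also on the epithelial list, passed the filter. The 8 endothelial markers summed to 48.1 to 61.9 FPKM and the 12 fibroblast markers to 13412 to 15138 FPKM, with 0 of 12 fibroblast markers at least 2-fold higher in either knockout and 2 at least 2-fold lower in the library labelled as IL-10 knockout. Pdpn, the gene of the sort marker, had 158 to 292.5 FPKM.

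Profiles over the 4 libraries were compared with those of 8820 genes by the distance between centred log2(FPKM + 1) values, as a description with no test. Nearest to Reg3b was Saa3, a serum amyloid gene of inflamed stroma and myeloid cells (distance 0.23), followed by Reg3g (1.08) and the itaconate enzyme gene Irg1 (1.91). Saa3 had 12.1, 1013, 13.5 and 1538 FPKM in the order of libraries above, and it was also nearest to Reg3g (0.91). Nearest to Retnlb were the histamine enzyme gene Hdc (0.45), Lcn2 (0.65) and the myeloid lectin gene Clec4e (0.82). Nearest to Pla2g2a were Apol6 (0.89), the interferon-induced gene Gbp4 (1.28) and Chl1 (1.34), all highest in Rag2 knockout. Nearest to Tff3 were Wisp2 (0.44), Agr2 (0.65) and H2-Q8 (0.67), which share its higher level in C57BL/6J than in wild-type BALB/c. Pearson correlations for these genes were 0.952 or higher over 4 libraries, which many genes reach with so few points.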

How the data were processed

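RNA of 4 libraries, 1 per group, was deposited as FPKM computed by the authors. Cuffdiff 2.2.1, SAMtools 0.1.18, Bowtie2 2.2.8, TopHat2 2.1.1 and the build mm10 appear in the submitters' processing notes. Annotation, strand setting and normalization were not given in the sources used.

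The members and the 16 gene lists were chosen with earlier results of these data known. Genes that reached 1 FPKM in a library of the pair were compared as log2(FPKM + 1), and 2-fold differences were counted. With 1 library per group no test was run. Depth was estimated as the number of fragments that put 75.7% to 78.0% of low values of single-length transcripts (600 to 4000 bases, less 210) within 0.1 of a whole fragment. Fragments of the members and exact 95% intervals (Clopper-Pearson) follow from it. Counting was checked on simulated data. Named genes were all relatives of the members and, from each other list, up to 4 per knockout comparison with the largest absolute ratio and at least 5 FPKM, plus the sort markers, label checks and the 3 genes with the nearest profile. Windows were credited to RefSeq (GRCm38.p6, the same assembly as mm10) and transcripts to GENCODE M21, aligned with Biopython 1.88. List symbols without a row under that name were not used. Analyses used Python 3.11.15, numpy 2.4.6, pandas 2.3.3 and scipy 1.17.1.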

Additional observations from a re-analysis of the deposited data

How the results depend on the processing

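The counts of members at least 2-fold higher (5 and 5 in the knockout pairs) and lower (1 between the wild types) were the same with pseudocounts of 0.1 and 5, after rescaling without small RNAs, after centring, with no filter or one of 5 FPKM, and at 4-fold. The members were chosen as far higher in the knockouts, and all 5 exceeded 5 FPKM in each knockout. The knockout counts thus had little room to change and give no support. The 9 log2 ratios of members that passed the filter and were above 0 in both libraries kept their sign under the 4 alternatives tried for each. A pseudocount added to both libraries cannot reverse a sign, and the medians used for centring were only -0.002, -0.004 and 0.004. Nothing is therefore read from the kept signs. The size of the ratios depended on the pseudocount where wild type was near 0: Pla2g2a in C57BL/6J ran from 1.09 to 4.39 and Retnlb in BALB/c from 1.60 to 5.15, whereas Tff3 in C57BL/6J ran from 2.51 to 2.94. Depth limits the wild type values, of which 8 of 10 rest on 0 to 2 fragments. No paired analysis was possible because each group has 1 library, and for the same reason no library could be left out.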
